A study of Mus musculus with 10 samples.

Results

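Cluster 8 is a group of leukocytes that was recovered with mouse colonic crypts, the pits of epithelium that renew the lining of the colon. Its members were the cells of the normal and DSS crypt libraries that the authors' deposited annotation places in cluster 8 of 25 clusters found among the colonic cells. It held 116 of 3065 colonic cells (3.78%), and the whole series held 25204 cells in 10 libraries, of which the others were intestinal organoids. The normal library, from colonic crypts of untreated mice, gave 7 of the members. The DSS library, from colonic crypts of mice treated with dextran sulfate sodium (DSS), an agent given in the drinking water that injures the colonic epithelium, gave 109 of them, 94.0% of the cluster.

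The labels state no strain, age, sex, number of animals or day of treatment for either library, and each condition is 1 library. The methods name C57BL/6 mice, and for the colitis model they give an age and a schedule of DSS followed by normal drinking water. They describe crypt isolation for the small intestine, with EDTA and a strainer, and how the colonic crypts were prepared is not given in the sources used here. No test between the conditions was therefore possible, cells of a library are not replicates, and every interval below covers counting error only. The libraries also differed in sex. Xist, the RNA that coats the silent X chromosome, had 9494 UMIs (unique molecular identifiers, 1 per captured transcript molecule) in 978 of 1132 normal cells and 3 UMIs among the 1933 DSS cells, whereas the Y-linked gene Ddx3y had 0 UMIs in the normal library and 1092 UMIs in 704 DSS cells. Within cluster 8, Xist was found in 5 of 7 normal cells and 0 DSS cells, and Ddx3y in 42 DSS cells and 0 normal cells. The methods name female mice for the colitis model, which the DSS library does not match. Sex, treatment and the library itself cannot be told apart in what follows.

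The cluster was shallow. Its cells had a median of 2313 UMIs and 998 genes in the normal library and 2987 UMIs and 1165 genes in the DSS library, against library medians of 18374.5 and 16051 UMIs. Summed over the cluster there were 22676 normal and 472118 DSS UMIs, so 1 UMI was worth 44.1 counts per 1000000 UMIs (CPM) in the normal sum and 2.12 CPM in the DSS sum. The median mitochondrial share of a cell was 6.51% and 6.34%. The libraries shared 2 cell barcodes, and 0 of them belonged to a cluster 8 cell.

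B cells recognise antigen with a surface immunoglobulin that signals through its partner chains Cd79a and Cd79b. They load peptides onto MHC class II molecules for helper T cells, and mature follicular B cells carry IgM and IgD and move between blood and lymphoid follicles by way of receptors such as Ccr7 and Cxcr5. In the colon, B cells gather in isolated lymphoid follicles below the epithelium, and their progeny, the plasma cells, secrete dimeric IgA joined by the J chain, which epithelial cells carry into the lumen.

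The promoters below, from 250 bases before to 50 bases after the start of transcription, are shown because their genes define the cluster or carry its antigen presentation. They are RefSeq sequences on the GRCm38.p6 build, read 5′ to 3′ on the strand of the gene. The motifs searched, on both strands and without overlap between them in these windows, are of B cell and class II promoters: the octamer ATGCAAAT bound by Oct factors, the inverted CCAAT motif CTGATTGG of class II promoters (the Y box), and CCCNNGGG, the palindromic core bound by EBF factors. Capitals mark a match. The Cd79a window (chr7:24897247-24897546, plus strand) held 0 matches, the Vpreb3 window (chr10:75948050-75948349, plus strand) an octamer read on the opposite strand 45 bases upstream of the start, and the windows of H2-Aa (chr17:34287774-34288073, minus strand) and H2-Eb1 (chr17:34305617-34305916, plus strand) a Y box 51 and 62 bases upstream.
Cd79a: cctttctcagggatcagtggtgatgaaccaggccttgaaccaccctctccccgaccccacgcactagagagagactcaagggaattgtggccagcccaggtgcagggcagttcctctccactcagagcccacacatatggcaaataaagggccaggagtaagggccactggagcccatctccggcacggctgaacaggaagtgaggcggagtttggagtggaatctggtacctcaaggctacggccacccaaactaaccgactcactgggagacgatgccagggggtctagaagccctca
Vpreb3: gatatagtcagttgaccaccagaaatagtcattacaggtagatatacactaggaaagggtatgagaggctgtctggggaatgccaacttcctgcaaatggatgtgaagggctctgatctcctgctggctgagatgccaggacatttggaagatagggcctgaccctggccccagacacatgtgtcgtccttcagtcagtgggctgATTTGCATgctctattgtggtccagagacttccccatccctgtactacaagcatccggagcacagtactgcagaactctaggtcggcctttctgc
H2-Aa: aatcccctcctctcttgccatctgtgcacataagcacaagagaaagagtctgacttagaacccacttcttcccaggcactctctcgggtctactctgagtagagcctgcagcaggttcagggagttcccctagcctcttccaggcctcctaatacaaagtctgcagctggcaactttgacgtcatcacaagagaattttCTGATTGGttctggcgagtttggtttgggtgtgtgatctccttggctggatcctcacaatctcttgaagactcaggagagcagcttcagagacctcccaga
H2-Eb1: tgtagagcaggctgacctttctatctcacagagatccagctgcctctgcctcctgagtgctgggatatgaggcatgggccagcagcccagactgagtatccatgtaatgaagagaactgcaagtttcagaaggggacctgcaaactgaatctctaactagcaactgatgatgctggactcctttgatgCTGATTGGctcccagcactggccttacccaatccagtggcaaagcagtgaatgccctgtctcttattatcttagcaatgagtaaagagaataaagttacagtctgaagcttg

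Of 32851 promoter windows, 1.74% held the octamer, 4.1% the Y box and 13.7% the EBF core. The 20 leading genes of the cluster, given next, matched 16 windows of 11 genes, and the class II list 10 windows of 9 genes. Among the leading genes the octamer was in 1 (Vpreb3), the Y box in 2 (Fcer2a and H2-Oa) and the EBF core in 2 (Bank1 and H2-DMb2). Among the class II genes the Y box was in 3 (H2-Aa, H2-Eb1 and H2-Oa). A match to these letters describes the sequence and is not evidence of binding. Sites that depart from these letters were not searched, so a missing match is not evidence that a site is absent.

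Most leading genes of cluster 8 were those of mature B cells, while Igkc and Mzb1 among them are on the plasma cell list. That list summed to 7409 CPM against 162 CPM in the other cells of the normal library, and 216946 CPM against 1055 CPM in the DSS library. Of Mzb1, 22 of the 24 normal UMIs were in 1 cell, and 143 of the 476 DSS UMIs in another. All 6 genes of the B cell list (among them Ptprc, Cd79a, Cd79b, Ms4a1 and Cd22) were at least 2-fold higher than in the other colonic cells in both libraries, and their summed level was 3352 CPM against 27.9 CPM in the normal library and 3950 CPM against 33.6 CPM in the DSS library. All 8 epithelial genes were at least 2-fold lower in both libraries, with sums of 397 CPM against 16389 CPM and 1116 CPM against 14575 CPM. Since the clusters were made from these genes, the contrast is a description with no test. By the same rule 748 of 9264 genes (8.07%) were higher than in the other cells in both libraries, and 2850 (30.8%) were lower.

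Cd79a (chromosome 7), which couples the B cell receptor to its kinases, stood first. It was at 2205 CPM (95% interval, 1637 to 2907) in the 7 normal cells and 2529 CPM (2388 to 2677) in the 109 DSS cells, against 0.201 and 2.85 CPM in the other cells. Next came Ebf1, a transcription factor that commits progenitors to the B lineage, at 838 and 1065 CPM, against 0.201 and 1.28 CPM elsewhere. These genes were found in 6 normal cells each and in 104 and 99 of the DSS cells, so nearly every member carried them.

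The other leading genes fell into few groups. Of the B cell surface and signalling genes, Ms4a1 (CD20) was at 220.5 and 417 CPM in the normal and DSS cells, and Bank1, a scaffold of receptor signalling, at 176 and 263 CPM. Fcmr, the Fc receptor for IgM, was at 397 and 458 CPM, and Fcer2a (CD23), the low-affinity IgE receptor of follicular B cells, at 176 and 191 CPM with 0 UMIs in any other colonic cell. The class II chaperones that mark B cells among antigen-presenting cells led as well, with H2-DMb2 at 573 and 854 CPM, H2-Ob at 441 and 366 CPM and H2-Oa at 220.5 and 279.6 CPM. Of the remaining leading genes, Mef2c is a transcription factor of B cell activation, Cd83 a regulator of class II turnover, Ccr7 a receptor for lymph node chemokines, Ighd the IgD heavy chain, and Vpreb3 an endoplasmic reticulum protein of B cells. Each of the 20 lay at least 7.05 log2 units above the other cells in both libraries, on a scale of log2(CPM + 1).

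**Figure D1:**
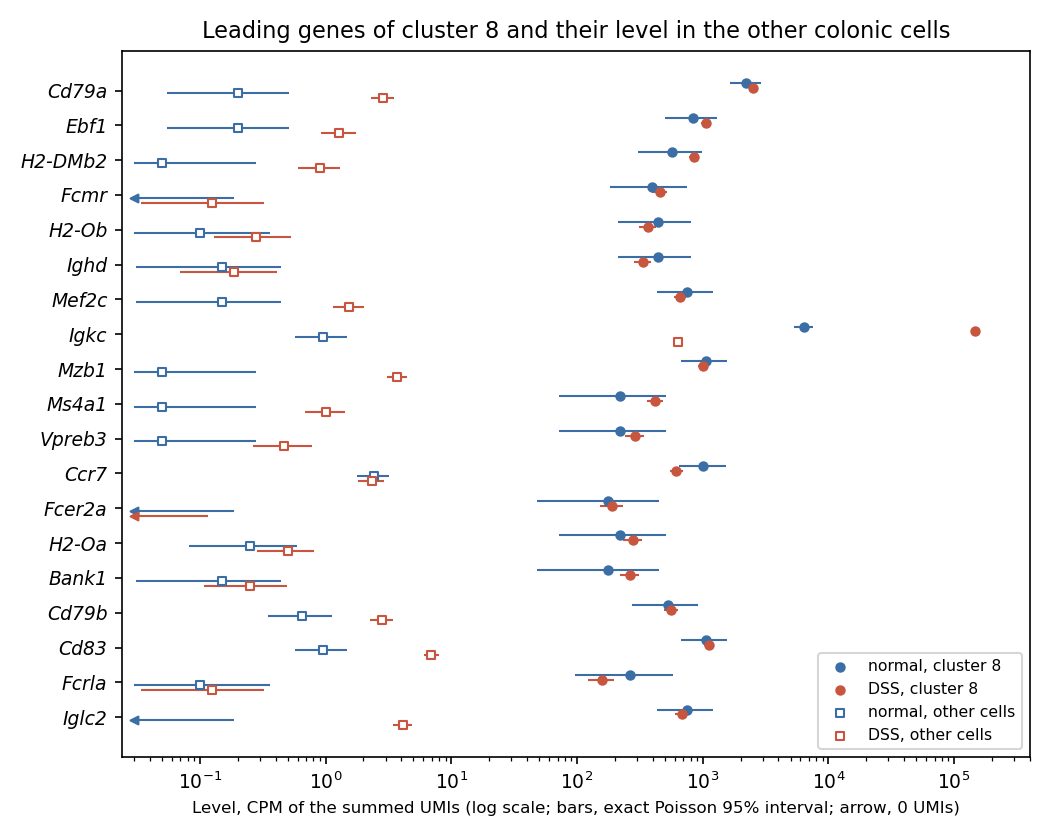
Level in CPM (log scale) of 19 of the 20 leading genes, summed over cluster 8 (filled circles) and over the other colonic cells (open squares), in the normal (blue) and DSS (red) libraries, with exact Poisson 95% intervals and arrows for 0 UMIs. The circles of the 2 libraries lie close together except for Igkc, at 6350 CPM in the normal and 147969 CPM in the DSS cells, and every square lies far to the left of its circle.

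By the 2-fold rule 8 of 8 epithelial, 11 of 12 goblet and 15 of 16 colonocyte genes were lower than in the other cells in both libraries. Epithelial RNA was still found in most cells of both libraries. Of other lists, 1 of 12 cycling, 2 of 10 tuft, 1 of 10 macrophage, 1 of 8 neutrophil and 0 of 6 dendritic cell genes were lower, against 30.8% of all genes. Cycling genes summed to 882 and 904 CPM, against 735 and 623 CPM in the other cells. Tuft genes summed to 706 and 67.8 CPM, against 20.3 and 54.5 CPM. The 706 CPM was Alox5ap alone, with 15 of its 16 UMIs in 1 cell described below. Colonocyte genes summed to 1367 CPM in the normal and 1879 CPM in the DSS cells, against 26445 and 19283 CPM in the other cells, and at least 1 of the 16 was found in all 7 normal and all 109 DSS cells. At least 1 of 12 goblet genes was found in 6 normal and 105 DSS cells and at least 1 of 8 epithelial genes in 5 and 107. The dendritic cell list, which holds Ptprc, had 3 of 6 genes higher in both libraries and summed to 353 and 235 CPM, with Flt3 and Itgax in 3 DSS cells each. Fibroblast and smooth muscle genes had 0 UMIs in both libraries. The macrophage list summed to 2558 CPM in the normal cells, mostly Tyrobp and Fcer1g of 1 cell described below, and to 369 CPM in the DSS cells. Its defining genes Lyz2, C1qa and Adgre1 had 0 UMIs in both, as had the mast cell gene Cpa3. Of the T or NK cell list, 5 of 10 genes were at least 2-fold lower than in the other cells in both libraries (30.8% of all genes). Only the leukocyte gene Ptprc was higher, and 6 of the 10 had 0 UMIs in the normal cells. Epcam had 0 UMIs in the normal cells and 62 UMIs in 41 DSS cells (131 CPM, against 2199 CPM in the other DSS cells). The 10 genes furthest below the other cells (Slc51a, 5730559C18Rik, Luzp1, Sema3c, Plekha6, Prelid2, Fermt1, Tmem98 and Slc5a1 among them) had 0 UMIs in all 116 cells. Slc51a is a subunit of the bile acid transporter and Slc5a1 the sodium-glucose transporter. The cells are therefore called B cell-like as a group, with the exceptions that follow. Ranked by fold within each library alone, the top 10 genes held 1 gene of the B cell list and 2 (normal) or 3 (DSS) of the plasma cell list, so the libraries are compared for cluster 8 by its number and not as a cell type.

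Cell by cell, the label held for most members. At least 2 of 5 B cell genes (Cd79a, Cd79b, Ms4a1 and Cd22 among them) were found in 6 of 7 normal and 102 of 109 DSS cells (93.6%), against 1 of 1125 (0.0889%) and 7 of 1824 (0.384%) of the other colonic cells. Among those 102 were 4 cells in which immunoglobulin genes made up most of the RNA. The remaining 6 normal and 98 DSS cells, with immunoglobulin under 50% of their UMIs, are called B-marker cells below, a division made after the values were seen.

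The 6 normal B-marker cells had 3100, 2805, 2313, 2243, 1850 and 1834 UMIs. In that order Cd79a had 9, 9, 11, 14, 2 and 5 UMIs, and Cd74, the class II invariant chain, had 72, 100, 95, 80, 57 and 73 UMIs. Igkc, the kappa light chain constant region, had 33, 12, 6, 18, 22 and 53 UMIs. Each of the 6 cells thus carried receptor, class II and light chain RNA, Igkc with the widest spread of the 3 genes. The 98 DSS B-marker cells had from 1454 to 12907 UMIs (median 2953.5). Their Cd79a ran from 2 through a median of 11 to 26 UMIs, their Cd74 from 40 through 102 to 189 UMIs and their Igkc from 0 through 23 to 245 UMIs, so the ranges of the normal cells lay inside those of the DSS cells for each gene.

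The 4 immunoglobulin-rich cells, all from the DSS library, resembled IgA-secreting plasma cells by their genes. They had 55102, 24359, 23256 and 23147 UMIs, of which immunoglobulin genes made up 73.7%, 74.7%, 68.4% and 74.4%. In that order the IgA heavy chain Igha had 8564, 4846, 4283 and 6277 UMIs, and Igkc had 31743, 12996, 11551 and 10859 UMIs. Jchain, the joining chain of dimeric IgA, had 3425, 1491, 2233 and 872 UMIs. All 4 also held the plasma cell syndecan Sdc1 (6, 2, 7 and 2 UMIs), Xbp1, the transcription factor of secretory expansion (91, 43, 60 and 11 UMIs), and Slpi, a secreted protease inhibitor (96, 78, 34 and 41 UMIs). Sdc1 was not particular to them. It was found in 62.8% of the other DSS cells, at 148 CPM, against 53.0 CPM in the DSS cells of cluster 8. Their B cell genes were low for their depth, with 1 UMI of Ms4a1 in the deepest and 2, 0, 1 and 0 UMIs of the class II chain H2-Aa. The deepest also had 46 UMIs of the interferon-induced chemokine Cxcl10. These 4 cells supplied 26.7% of the DSS UMIs of the cluster, and 0 of the 4 were among the 5% of colonic cells with the highest doublet score.

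**Figure D2:**
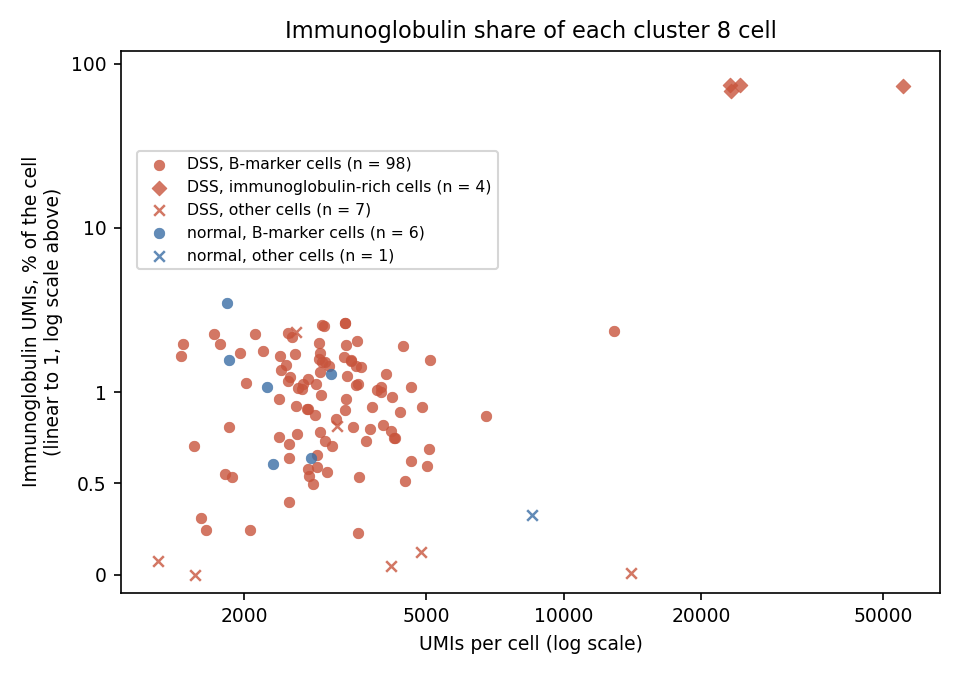
UMIs per cell (log scale) against the share of immunoglobulin UMIs in percent (linear to 1, log scale above) for each of the 116 cells, coloured by library and marked by kind. The 4 immunoglobulin-rich DSS cells stand at 68.4% to 74.7%, and every other cell lies at 3.49% or below.

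The 8 members that were neither kind were a mixture. The normal one, with 8531 UMIs the deepest of the 7, held genes of plasmacytoid dendritic cells, the interferon-producing cells that share several genes with B cells. It had 13 UMIs of Siglech, 19 of Ccr9, 17 of Cox6a2, 37 of Bst2, 23 of Irf8 and 30 of Tyrobp, with 0 UMIs of Cd79a and of H2-Aa. It alone supplied 37.6% of the normal UMIs of the cluster. A DSS cell of 4883 UMIs had most of these genes at lower counts, with 3 UMIs of Siglech, 6 of Cox6a2, 16 of Bst2 and 10 of Irf8, but 0 of Ccr9. Siglech was found in no colonic cell outside cluster 8. Among the other DSS cells, a pair of 3199 and 2597 UMIs had 9 and 16 UMIs of Cd79a and Igkc at 14 and 51, and so were short of the division by 1 marker. A cell of 14010 UMIs had 101 UMIs of H2-Aa and 77 of Rgs1 with 0 of Cd79a, a cell of 4199 UMIs had 17 UMIs of Cd7 and 9 of Fcer1g, and the last ones of 1563 and 1298 UMIs had 28 and 11 UMIs of H2-Aa with 0 of Cd79a.

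By heavy chain, most B-marker cells were of the unswitched kind. Ighm and Ighd, the IgM and IgD heavy chains, were found together in 4 of 6 normal and 64 of 98 DSS cells (65.3%), Ighm alone in 1 and 26, Ighd alone in 1 and 2, and neither in 0 and 6. At an equal 1800 UMIs per cell, a depth that left out 7 of the 98 DSS cells, Ighd was seen in 5 of 6 normal and 49 of 91 DSS cells (53.8%), and in 0.279% and 0.119% of the other colonic cells. Ighm was less particular to the cluster. At that depth it was seen in 5 of 6 normal and 81 of 91 DSS B-marker cells (89.0%), but also in 34.9% and 34.6% of cells of cluster 0, a cluster rich in the T cell gene Cd3e. An IgG heavy chain was found in 3 DSS cells, in 2 of them with 7 and 6 UMIs of Ighg2b and no Ighm or Ighd.

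Igha was found in 9 of 98 DSS cells (9.18%) and 0 of 6 normal cells, while 14.3% of the 1824 DSS cells outside the cluster also held it, at a median depth of 17669 UMIs. At 1800 UMIs the shares were 8.79% of the DSS B-marker cells, 3.62% of all other DSS cells and 12.3% of the cells of clusters 0 and 11, the clusters rich in Cd3e. The share in the B-marker cells thus lay between those of the other groups, and the part of free RNA in it was not tested. Igkc likewise reached 22.8% of the other DSS cells, against 0.533% in the normal library, and 3 DSS cells outside the cluster had over 20 UMIs of Jchain. A pair of B-marker cells stood out, named after their values were seen. One of 3311 UMIs had 8 UMIs. Another of 12907 UMIs, the deepest of them, had 24 UMIs of Igha, 14 of Jchain and 245 of Igkc, together with 5 of the mitotic gene Top2a.

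Light chain use was one-sided in most cells. All 6 normal cells and 95 of the 98 DSS cells had at least 5 light chain UMIs. Kappa made up over 80% of them in all 6 normal cells and in 80 DSS cells, 50% to 80% in 11 DSS cells, 20% to 50% in 0, and under 20% in 4 DSS cells. Those 4 lambda cells had 19, 43, 36 and 24 lambda UMIs against 0, 0, 5 and 0 UMIs of Igkc. A B cell normally expresses a single light chain, and lambda is the minor class in mice. The lambda constant genes are near-identical copies, so how their UMIs divide among Iglc1, Iglc2 and Iglc3 is uncertain. The count table holds 25 immunoglobulin variable genes of the 348 in the library matrices, so clonal relations were not examined.

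The stage genes were read from lists. The 8 follicular genes included Ighd, Ighm, Fcer2a, Cr2, Ccr7, Cxcr5 and Fcmr. Of them 7 were at least 2-fold higher than in the other cells in both libraries (8.07% of all genes). The exception was Cr2, the complement receptor CD21, with 0 UMIs in the normal cells and 31 UMIs in 24 DSS cells. Germinal centre genes were scarce, with 8 UMIs of Bcl6 in 6 DSS cells and 1 UMI of Mki67, and 9 of the 10 had 0 UMIs in the normal cells. In the DSS library 7 of the 10 were at least 2-fold higher and 1 at least 2-fold lower than in the other cells, at a summed level of 119 CPM. Of the 10 memory, marginal zone and B1 genes, 5 were at least 2-fold higher and 3 at least 2-fold lower than in the other cells in the DSS library. There 1272 of 9264 genes (13.7%) were higher and 40% lower by that rule. Since 9 of the 10 had 0 UMIs in the normal cells, the normal library does not bear on them. In the normal library a gene at 0 was read against the floor of 3 UMIs, or 132 CPM, while the exact Poisson interval for 0 UMIs reaches 163 CPM, so absence there was not detectable. These lists were written after values of the cluster had been seen.

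Of 26 genes of B cell receptor signalling, 17 were at least 2-fold higher than in the other cells in both libraries and 23 in the DSS library, against 8.07% and 13.7% of all genes, while 6 had 0 UMIs in the normal cells. Siglecg, an inhibitory lectin, was at 132 and 157 CPM, and Malt1, a protease of the NF-kappaB branch, at 176 and 102 CPM. Bcl10, the partner of Malt1, named after its values were seen, was at 353 and 110 CPM against 75.9 and 83.9 CPM in the other cells. Among the B-marker cells Bcl10 had 8 UMIs in 3 of 6 normal cells and 43 UMIs in 35 of 98 DSS cells (566 and 137 CPM), 4.14 times as high in the normal cells (1.68 to 8.90). The kinases Btk and Blk had 0 UMIs in the normal cells and 22 and 24 UMIs in the DSS cells (46.6 and 50.8 CPM). Of 19 B cell transcription factors, 12 were higher in both libraries and all 19 in the DSS library, beside the same shares of all genes. The DSS count rests in part on the immunoglobulin-rich cells, since Xbp1 had 22 of its 228 UMIs in the B-marker cells (70.0 CPM, against 175 CPM in the other colonic cells) and Prdm1 had 0 of its 6 UMIs there. The count for both libraries includes Xbp1, whose normal UMIs were 10 of 11 in the cell with plasmacytoid dendritic cell genes, which also held 23 of the 27 of Irf8. In the normal B-marker cells Xbp1 was at 70.7 CPM, against 164 CPM in the other colonic cells. Pax5, which holds B cell identity, had 28 UMIs in 23 DSS cells and 0 UMIs in the normal cells. The coactivator Pou2af1 had 52 UMIs in 27 DSS cells and 0 in the normal cells. Klf2, a factor of quiescence and trafficking, was at 1808 and 1593 CPM against 248 and 215 CPM in the other cells.

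Among the homing receptors, Gpr183 differed between the libraries beyond counting error. Of 13 genes, 10 were at least 2-fold higher than in the other cells in both libraries (8.07% of all genes), among them Cxcr5, the receptor for the follicle chemokine, at 132 and 99.6 CPM, and Cxcr4 at 220.5 and 161 CPM. Gpr183 (EBI2), a receptor for oxysterols that guides B cells within follicles, had 10 UMIs in 4 of 6 normal and 67 UMIs in 44 of 98 DSS B-marker cells. This gave 707 CPM (339 to 1300.1) against 213 CPM (165 to 271), a normal level of 3.32 times the DSS level, with a counting interval of 1.52 to 6.49. Ccr7 was at 1626 CPM (1031 to 2440) against 899.8 CPM (798 to 1011) in the B-marker cells. Its intervals lay just apart but its difference was under 2-fold. Of the integrin chains of gut homing, Itgb7 was at 88.2 and 63.5 CPM in the cluster, against 12.3 and 13.6 CPM in the other cells, and Itga4 at 132 and 76.3 CPM, against 2.87 and 4.29 CPM. In the B-marker cells Itgb7 had 0 and 18 UMIs and Itga4 2 and 23 UMIs. Ccr10, a receptor of IgA plasma cells, had 19 UMIs in 3 DSS cells and 0 UMIs in the B-marker cells. These 3 genes were named after their values were seen, as members of a list on homing.

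Class II RNA was present in every B-marker cell, with at least 6 UMIs of H2-Aa and 40 of Cd74 in each. All 12 measured genes of class II and its loading were at least 2-fold higher than in the other cells in both libraries, against 8.07% of all genes. H2-Aa was at 3925 CPM in the normal and 5287 CPM in the DSS cells, H2-Ab1 at 2161 and 2423 CPM, H2-Eb1 at 2866 and 3311 CPM, and Cd74 at 21168 and 24007 CPM. In the B-marker cells the ratio of DSS to normal was 1.15 (0.933 to 1.44) for H2-Aa, 0.941 (0.706 to 1.28) for H2-Ab1, 0.958 (0.747 to 1.25) for H2-Eb1 and 0.966 (0.881 to 1.06) for Cd74, so a difference of over 1.44-fold upward lay outside the counting interval of each. Outside the cluster the summed levels of these genes were higher in the DSS library. H2-Aa was at 6.14 CPM in the other normal and 99.8 CPM in the other DSS cells, and Cd74 at 39.0 and 442 CPM. In the DSS library, cluster 21, with 20 DSS cells and 1 normal cell and rich in the macrophage gene C1qa, was at 13705 CPM of H2-Aa and 48687 CPM of Cd74, while clusters 0 and 11 were at 12.2 and 27.0 CPM of H2-Aa. Ciita, the transactivator of these genes, had 1 UMI in the normal and 30 UMIs in the DSS cells. The promoters of H2-Aa and H2-Eb1, each with its Y box, are those printed above.

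Costimulation and cytokine genes were mostly at low counts. Of 16 genes, 9 were at least 2-fold higher than in the other cells in both libraries, against 8.07% of all genes. Cd83 was at 1058 and 1123 CPM, Il2rg, the common cytokine receptor chain, at 617 and 394 CPM, and Ltb, which shapes lymphoid tissue, at 176 and 231 CPM. Tnfrsf13c, the receptor for the survival factor BAFF, had 1 UMI in the normal cells and 60 UMIs in 37 DSS cells. The regulatory cytokine Il10 had 0 UMIs in both libraries.

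Cluster 8 took a larger share of the DSS library. It made up 0.618% of the normal library (7 of 1132, 95% interval 0.249% to 1.27%) and 5.64% of the DSS library (109 of 1933, 4.65% to 6.76%), 9.12 times the normal share. B-marker cells alone made up 0.53% (0.195% to 1.15%) and 5.07% (4.13% to 6.14%), and immunoglobulin-rich cells 0 of 1132, which allows a share of up to 0.325%, and 0.207% (0.0564% to 0.529%). The intervals of the cluster and of the B-marker cells did not overlap, and those of the immunoglobulin-rich cells did. Leukocytes as a whole differed less. The 6 clusters in which most cells held Ptprc, over both libraries, were together 219 of 1132 normal cells (19.3%) and 445 of 1933 DSS cells. Cluster 8 was 3.20% (1.29% to 6.47%) and 24.5% (20.6% to 28.8%) of their cells. It met that rule narrowly, with Ptprc in 50.9% of its cells. These were 3 of its 7 normal and 56 of its 109 DSS cells, so the normal cells alone would not have met it. Cluster 0 went the other way, at 13.3% (11.4% to 15.5%) and 8.23% (7.04% to 9.54%), and cluster 15, rich in the neutrophil gene S100a8, was found in the DSS library only, at 3.41%. Cluster 21, with 1 normal and 20 DSS cells, was also larger in the DSS library, at 0.0883% (0.00224% to 0.491%) and 1.03% (0.633% to 1.59%). Cluster 18 was at 0.972% and 1.71%, with intervals that overlapped. A crypt preparation takes a variable part of the tissue under the epithelium, and how much of it each library took was not tested. A filter of at least 1500 genes, which the methods state for fewer libraries than the series holds, would leave 1 normal and 17 DSS cells of the cluster.

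**Figure D3:**
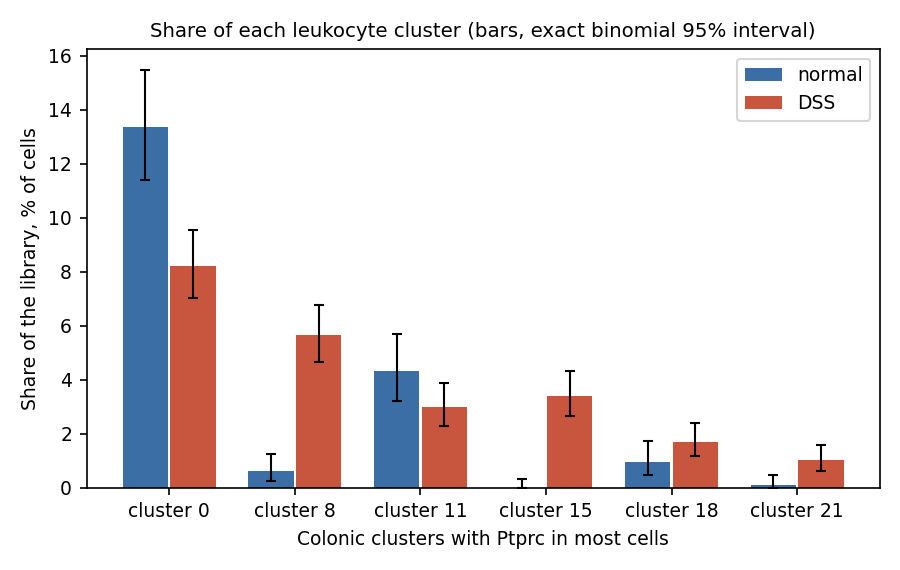
Share of the library in percent of its cells for the 6 clusters in which most cells of both libraries together held Ptprc, in the normal (blue) and DSS (red) libraries, with exact binomial 95% intervals. Cluster 8 goes from 0.618% to 5.64% and cluster 21 from 0.0883% to 1.03%, each with its intervals apart. Clusters 0 and 11 are lower in the DSS library, and the intervals of cluster 11 overlap.

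Within the cluster, differences between the libraries had to be read against few normal UMIs. Of 7174 genes at 10 CPM or more in either sum, 38.5% were at least 2-fold higher and 33.6% at least 2-fold lower in the DSS cells, against 1.87% and 1.73% of 7982 genes in the other colonic cells. Of the 2763 higher genes, 2671 had 0 UMIs in the normal sum and 22 were past 2-fold against the floor of 3 UMIs, and of the 2411 lower genes 2004 rested on at most 3 normal UMIs. The split also depended on scaling. With TMM factors, which moved every log2 difference by 1.06, it was 3921 higher and 1075 lower. Asking also that the Poisson intervals lie apart left 14 genes higher (0.195%) and 198 lower (2.76%). Of the 14, Creld2, Zg16, Tmem176b and Eif3e had 0 normal UMIs and were short of 2-fold against the floor, at 1.91, 1.84, 1.71 and 1.71-fold. For 123 of the 198 the single normal cell with plasmacytoid genes held most of the normal UMIs.

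Plasma cell genes led the higher side. Igha had 0 UMIs in the normal cells and 24012 UMIs in 14 DSS cells, at least 384-fold higher against the floor, and Jchain 0 UMIs and 8043 UMIs in 9 DSS cells, at least 129-fold higher. Iglv1, a lambda variable gene, and Slpi were at least 6.88-fold and 4.03-fold higher. The lower limits of the exact 95% intervals of these 4 ratios were 313, 105, 5.57 and 3.26. The endoplasmic reticulum genes Creld2 and Hsp90b1, a chaperone of secretory cells, had 119 and 385 UMIs with 72 and 175 of them in 1 cell. Of the Igha and Jchain UMIs, 23970 and 8021 came from the 4 immunoglobulin-rich cells. In the B-marker cells Iglv1 had 0 UMIs and Igkc was slightly lower in the DSS than in the normal cells, at 8407 CPM against 10180.3 CPM, a ratio of 0.826 (0.698 to 0.984).

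Of the other higher genes, Tmem176b had 107 UMIs in 14 DSS cells with 48 in a single cell, and Iglc1 180 UMIs in 20 cells with 77 in a single cell. Eif3e, Lgals4, S100a6, Fos, Reg3b and Zg16 were found in 63 to 106 of the 109 cells. Reg3b, an antimicrobial lectin of epithelium, had 0 UMIs in the normal cells and 210 UMIs in 86 DSS cells (445 CPM), and Zg16, a goblet cell lectin, 0 UMIs and 115 UMIs in 66 cells. In the other colonic cells Reg3b was at 1112 CPM in the normal and 6825 CPM in the DSS library. At 1800 UMIs per cell it was seen in 65.9% of DSS B-marker cells, 52.1% of the DSS cells of clusters 0 and 11 and 51.0% of all other DSS cells, against 0 of 6, 3.11% and 7.71% in the normal library. The part of free epithelial RNA in these values was not tested. Fos, an early response gene, was higher by 0.78 log2 units, with 926 CPM (573 to 1416) and 1586 CPM (1475 to 1704), and S100a6 had 2 and 249 UMIs. The intervals of Fos overlapped in the B-marker cells, at 1273 CPM (754 to 2011) and 1739 CPM (1597 to 1891), a ratio of 1.37 (0.857 to 2.32). In the other cells Fos and S100a6 differed by -0.02 and 0.03 log2 units.

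The lower side held Xist, its antisense partner Tsix (3 UMIs in the normal cells) and Gm47283 (6 UMIs) at 0 UMIs in the DSS cells. Ccr9, with 19 UMIs in the normal sum and 1 in the DSS sum, came from the plasmacytoid-like cell alone. The other 11 genes named by the ranking rule (BC147527, Clec12a, Clec9a, Glce, Gm12840, Gm21762, Padi1, Plxdc1, Serpinh1, Sla2 and Smim5) had 2 normal UMIs each, in 1 or 2 cells. The genes whose difference departed most from that in the other colonic cells were largely the same kinds. Upward they were Igha, Creld2, Jchain, Atp5k, Sh3bp5, Zg16, Egr1, Eif3e, Sfn and Fabp2, each with 0 normal UMIs, and downward Alox5ap, Clec12a, Ccr9, Trf, Pltp, BC147527, Serpinh1, Trmt12, Clec9a and Padi1. Of the latter only Alox5ap, with 16 UMIs in the normal and 10 in the DSS cells, Ccr9 and Pltp (14 and 6 UMIs) had over 2 normal UMIs. The plasmacytoid-like cell held 15 of the normal UMIs of Alox5ap and all of those of Ccr9 and Pltp.

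The comparison was repeated in the B-marker cells alone, with a normal sum of 14145 UMIs. Of 6917 genes, 54.1% were at least 2-fold higher and 22.7% at least 2-fold lower, and with the intervals also apart 7 were higher (0.101%) and 49 lower (0.708%). The higher ones were Rpl11, Lgals4, Cox6b1, Zg16, Cox5a, Eef1g and Reg3b. Of these, Cox6b1, Zg16, Cox5a and Eef1g had 0 UMIs in the normal B-marker cells. Against the floor they were short of 2-fold, at 1.54, 1.60, 1.77 and 1.80-fold. Reg3b, also at 0 UMIs there, was at least 2.97-fold higher against the floor. Rpl11, a ribosomal protein gene, was at 1555 and 3571 CPM, with a ratio of 2.30 (1.51 to 3.68), and the median ribosomal share of a cluster 8 cell was 21.8% in the normal and 27.0% in the DSS library, against 13.5% and 17.1% in the other cells. Cox6b1 and Cox5a, subunits of respiratory complex IV, had 0 normal UMIs and 103 and 118 DSS UMIs. Of the 49 lower ones, Gpr183 is described above, and Ets1 and Irf2 are named here after their values were seen. Ets1, a transcription factor that restrains plasma cell formation, was at 919 and 391 CPM, the normal level 2.35 times the DSS level (1.22 to 4.17). Irf2, a repressor among the interferon regulatory factors that 47.0% of the other normal cells also held, was at 566 and 114 CPM, 4.94 times (1.98 to 10.8). These are 2 of 49 genes picked from 6917, from 14145 normal UMIs in 6 cells.

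**Figure D4:**
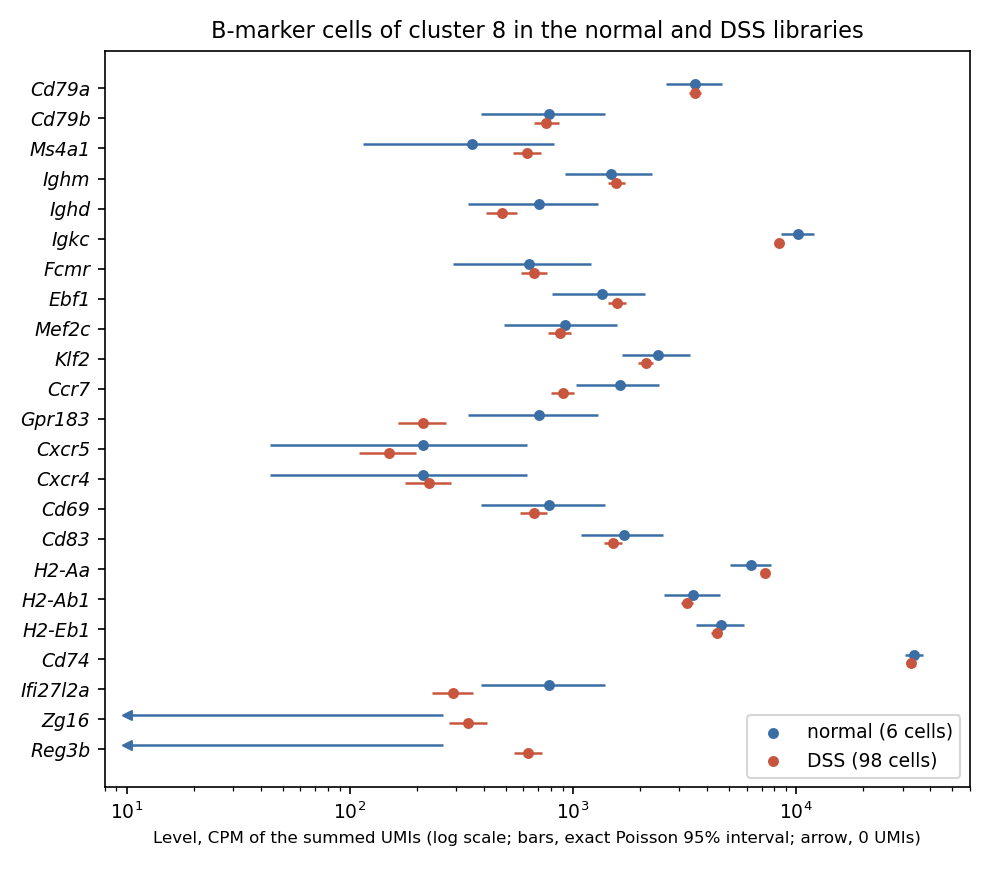
Level in CPM (log scale) in the summed B-marker cells of the normal (blue, 6 cells) and DSS (red, 98 cells) libraries, with exact Poisson 95% intervals and arrows for 0 UMIs. The intervals of the B cell receptor, light chain and class II genes overlap between the libraries, though the ratio of Igkc, 0.826 (0.698 to 0.984), lies below 1. The intervals of Ccr7, Gpr183 and Ifi27l2a lie apart with the DSS level lower, and those of Reg3b and Zg16 with the DSS level higher.

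Gene groups were described by counts and medians of the log2 difference, beside a median of -0.20 and the 2-fold shares of 38.5% and 33.6% over all 7174 genes. In the B-marker cells the median over all 6917 genes was 3.78. By the count of genes past 2-fold, class II was the most even list, at 0 of 7. Its median was 0.19, and -0.05 in the B-marker cells, while some other lists had a median nearer 0. Of the 7, 2 had intervals apart in the cluster, each higher in the DSS cells. The interferon response and MHC class I list had 6 of 23 genes higher and 7 lower with a median of -0.80, and 0.17 in the B-marker cells. Of it the antiviral factor Bst2 had 37 normal UMIs, all in the plasmacytoid-like cell, and Irf8 27 with 23 in that cell. B2m, the light chain of class I, was at 2205 and 1205 CPM in the cluster and at 1909 and 1415 CPM in the B-marker cells, a ratio of 0.741 (0.503 to 1.14). In the other colonic cells it was at 1112 and 574 CPM. Ifi27l2a, an interferon-induced gene, was at 778 CPM in the normal and 289 CPM in the DSS B-marker cells, with UMIs in 2 of 6 and 41 of 98 cells. The normal level was 2.69 times the DSS level (1.30 to 5.04) and was carried by those 2 cells. In the other colonic cells the gene was at 341 and 19.8 CPM.

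The list of early and dissociation stress genes had 4 of 21 genes higher and 2 lower with a median of 0.09. Its AP-1 members differed in direction. In the B-marker cells Junb was at 3252 and 4537 CPM, a ratio of 1.40 (1.04 to 1.91), and Jund at 12159.8 and 6537 CPM, a ratio of 0.538 (0.460 to 0.632). The endoplasmic reticulum and folding list had 6 of 20 higher and 4 lower, with a median of 0.69 that was -0.02 in the B-marker cells. Glycolysis had 2 of 12 higher and 0 lower with a median of -0.35, apoptosis and p53 5 and 4 of 16 with -0.49, and cholesterol synthesis 6 and 7 of 15 with -0.78. In the B-marker cells these medians had the opposite sign, at 0.95, 3.78 and 4.33, beside the 3.78 of all genes.

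Lists whose genes were mostly at 0 in the normal cells could not be given a direction. The S phase list had 16 of 22 genes higher and 3 lower, but all 16 had 0 normal UMIs, and its median of 3.78 became -2.52 when those genes were put at their bound against the floor. The chemokine and cytokine list (8 of 9 higher) went from 4.17 to -2.89, and the antimicrobial list (11 of 14 higher) from 4.40 to -1.19. The G2 and mitosis list had 9 of 24 higher, 6 lower and a median of 0.07. All genes went from -0.20 to -1.77 in the same way. The other 14 lists, mostly epithelial, had 170 genes tested, 86 higher and 36 lower, with 79 at 0 in the normal cells and medians from -1.88 to 3.78.

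Among clusters with over 20 cells in each library, those most like cluster 8 by correlation of log2(CPM + 1) over 13197 genes were cluster 0 (Pearson's r = 0.839), cluster 11 (0.806) and cluster 13 (0.723), values that describe 1 set of libraries. Clusters 0 and 11 carried the T cell gene Cd3e at 2176 and 2240.0 CPM in the normal library, and cluster 13 the epithelial gene Epcam at 1775 CPM. Klf2 told cluster 8 from all of them. It was at 1808 and 1593 CPM in cluster 8, against 246 and 198 CPM in cluster 0, 207 and 130 CPM in cluster 11 and 233 and 225 CPM in cluster 13. Cd69, an early activation gene, was shared with the T cells, at 573 and 523 CPM in cluster 8 and 1009 and 897 CPM in cluster 0. The log2 difference of Junb was 0.62 in cluster 8 and -0.22 and -0.45 in clusters 0 and 11. Igkc, at 3.57 and 83.7 CPM in cluster 0, and Reg3b, at 33.9 and 412 CPM there, were higher in the DSS library there as well. Reg3b was also higher in cluster 11, at 23.7 and 605 CPM, but lower in cluster 13, at 1501 and 695 CPM. All of these clusters rest on the same 2 libraries, so these values stand side by side and no difference between clusters was tested.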

How the data were processed

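The authors made droplet 3′ libraries (10x, version 3 chemistry) and deposited UMI counts per gene and cell, not normalized. Per the submitters' processing notes these came from Cell Ranger 3.0.0 and Seurat 3.1.4 on mm10, while the matrix header gives software version 3.1.0. The methods describe a filter of 1500 genes and 25% mitochondrial reads for fewer libraries than the series holds, and the kept colonic cells reach down to 501 genes and up to 20%. The count table equalled the library matrices over 23775 genes, with 0 differing entries. Cells and cluster numbers are the authors'.

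UMIs were summed per gene, library and cluster and given as CPM with exact Poisson 95% intervals, shares with Clopper-Pearson intervals. Log2 differences used a pseudocount of 1 CPM among genes at 10 CPM or more. Named genes were ranked by log2 ratio at 50 CPM or more: 20 leading and 10 lower genes, 15 in each direction between the libraries, and 10 departures from the other cells. Members and lists were chosen with earlier results of these data known. Doublets were scored with Scrublet in scanpy 1.11.5, which marked 11 of 3065 cells (0.359%, too few for a working call) and 0 of cluster 8, and none were removed. Alternatives used edgeR 4.0.16 TMM and DESeq2 1.42.0 size factors, for scaling only. The scripts were tested on simulated data, in Python 3.11.15 and R 4.3.3. Some genes are not reported here.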

Additional observations from a re-analysis of the deposited data

Results flagged for a closer look

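Barcodes that the authors had not kept were searched for the same B cell genes. Of 2813 such barcodes in the DSS library, 9 held at least 2 of the 5 genes (0.320%, 95% interval 0.146% to 0.606%), against 0 of 2495 in the normal library, which allows up to 0.148%. The 9 had a median of 4532 UMIs, from 593 to 10603, and a median mitochondrial share of 32.9%, above the 20% reached by the kept cells. A further search found 7 unkept DSS barcodes and 1 unkept normal barcode with over 20 UMIs of Jchain. These barcodes entered none of the comparisons, and the interval of the DSS share overlaps the limit for the normal library only at its lower end.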

How the results depend on the processing

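No paired analysis was possible because each condition is 1 library. The share of the cluster, 0.618% and 5.64% of the normal and DSS libraries, became 0.119% and 1.21% without cells under 1500 genes, and the DSS share 3.39% without cells holding Ptprc and 6.97% with all 109 cells set over the Ptprc-negative cells of the library. Every one of these kept the DSS share above the normal one, but the normal cell left by the 1500-gene filter was not a B-marker cell. Genes higher in DSS (2763) numbered 6506 with no filter, 317 at 50 CPM and 1278 with at least 10 UMIs. Genes lower (2411) numbered 1473 with cells thinned to 5000 UMIs, 1075 with TMM or DESeq2 scaling, 1174 at 50 CPM, 1568 in B-marker cells and 1139 with at least 10 UMIs. Genes higher than in the other cells (748) numbered 330 without cells under 1500 genes, 425 without cells holding Ptprc and 265 thinned, and genes lower (2850) 4333 with no filter and 1178 at 50 CPM. Of 25 lists, 11 had a median at least 2-fold higher in DSS. That became 19 without cells holding Ptprc, thinned, with TMM or DESeq2 scaling, with no filter and in B-marker cells, and 4 at 50 CPM. The 2 lists with a median 2-fold lower became 7 without cells under 1500 genes and 0 without cells holding Ptprc, with the mean of per-cell CPM, with TMM, DESeq2 or the total without mitochondrial, ribosomal, haemoglobin and immunoglobulin genes, with no filter and in B-marker cells. The cause was not tested. The log2 difference of Igkc reversed from 4.54 to -0.28 in B-marker cells, and that of Ccr9 from -8.07 to 2.25 without cells holding Ptprc and 2.06 in B-marker cells, the first a setting without the 4 immunoglobulin-rich cells and the others without the plasmacytoid-like cell. The settings for B-marker cells and for 10 UMIs were chosen after seeing the data. Without cells under 1500 genes 1 normal and 17 DSS cells were left, and thinning to 5000 UMIs left 1 and 10. In both settings the normal cell was the plasmacytoid-like one, so they held no normal B-marker cell. The 7 normal cells limit every level in the normal library.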
